A study of Mus musculus with 8 samples.

Results

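Iron and heme handling genes were described in mouse kidneys collected after ischaemia-reperfusion injury (IRI), in which the blood supply to the kidney is stopped and then restored. The set held 10 genes of the 34450 in the expression table: Hmox1, Fth1, Ftl1, Tfrc, Trf, Cp, Slc40a1, Slc11a2, Hpx and Cd163. They were chosen by name for their roles, with earlier results of these data known. All 10 were in the table, and 8 had a mean of at least 0.5 FPKM over all libraries and were tested. FPKM divides a gene's RNA fragments by the length of its transcript and by the total of its library, so it allows levels of different genes to be compared.

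The HxIRI group held 4 kidney libraries (numbered 1 to 4) from C57BL/6J mice that were exposed to hypoxia, a low oxygen supply, before the injury. The IRI group held 4 kidney libraries (numbered 5 to 8) from C57BL/6J mice that breathed normal oxygen before the same injury. Mice were 8 weeks old, kidneys were taken on day 3 after IRI, and all 8 libraries came from injured kidneys, so no uninjured kidney entered the comparison. The labels give neither the degree and length of the hypoxia nor a link from libraries to animals. All p-values therefore rest on the scatter among these 8 libraries, part or all of which could be technical.

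Cells take up iron from transferrin through the transferrin receptor, move it across membranes with the transporter DMT1, store it in ferritin shells built of heavy and light chains, and release it through ferroportin. Heme is cut open by heme oxygenase, which frees its iron. In the kidney, tubule cells reclaim filtered iron and heme, and heme oxygenase 1 is a known part of the response to tubular injury. Ferritin, ferroportin and the transferrin receptor are also controlled after transcription: iron regulatory proteins bind a hairpin in the mRNA, the iron-responsive element, and block translation when it lies in the 5′ UTR or protect the mRNA from decay when it lies in the 3′ UTR. A poly(A) RNA library measures the mRNA and not the block on translation.

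The hairpins are shown because their place, in the 5′ or the 3′ UTR, goes with the kinds of control given above. The sequences are from GENCODE release M21 transcripts on the GRCm38 mouse build, written as RNA 5′ to 3′, with the hairpin loop in capitals. The search was for a bulged C, 5 paired bases and the loop CAGUGN, in which the last base is not G. It covered protein-coding transcripts over their whole length, coding sequence included, on the transcript strand. It found a match in 4 of the 10 genes, always in a UTR. Of 11921 tested protein-coding genes, 150 (1.26%) had a match in any region. A match is a description of letters and not a measured binding site. The search asked for unbroken pairing and would miss elements of another form. A gene without a match, Slc11a2 among them, could therefore still carry an element.
Fth1, 5′ UTR, chr19:9982732-9982760, plus strand: uuccugcuucaaCAGUGCuugaacggaac
Ftl1, 5′ UTR, chr7:45459779-45459807, minus strand: gucuugcuucaaCAGUGUuugaacggaac
Slc40a1, 5′ UTR, chr1:45925465-45925493, minus strand: caacuucagcuaCAGUGUuagcuaaguuu
Tfrc, 3′ UTR, chr16:32631219-32631247, plus strand: aauuaucggaagCAGUGCcuuccauaauu
Tfrc, 3′ UTR, chr16:32631598-32631626, plus strand: cauuaucgggagCAGUGUcuuccauaaug
Tfrc, 3′ UTR, chr16:32631663-32631691, plus strand: cuauaucggagaCAGUGAucuccauaugu
Tfrc, 3′ UTR, chr16:32631710-32631738, plus strand: aauuaucgggaaCAGUGUuucccauaauu
Both ferritin genes carried the same upper stem, and the transferrin receptor mRNA carried 4 matches where the other 3 mRNAs carried 1 each.

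Kidney markers were present in every library: 7 markers of the proximal tubule summed to 590, 618, 330 and 346 FPKM in HxIRI libraries 1 to 4, against 640, 267, 225 and 66.0 FPKM in IRI libraries 5 to 8. All HxIRI sums lay above those of IRI libraries 6, 7 and 8. Slc34a1 was the largest part of every sum, and Slc22a7 was at 0 FPKM in IRI libraries 6 and 8. Of the 7 markers, 2 were higher and 0 lower in HxIRI as deposited (limma, list median 1.16), where 0.305% and 0.602% of tested genes were. With TMM 1 was higher, where 1.21% of tested genes were. Leaving out library 5 as well gave 5 higher (median 2.17), where 5.77% of tested genes were. The libraries differed in ways that touch every level below. Ribosomal RNA genes took 21.5% to 67.4% of FPKM times exon length in HxIRI libraries and 13.5% to 72.5% in IRI libraries, and the estimated depth was 8510000 to 14100000 fragments. HxIRI libraries 1 and 2 carry Ki before their number in the sample titles, and HxIRI libraries 3 and 4 and all IRI libraries carry K. The file headers write Ki for all 8 libraries, and the labels do not say what the difference in the titles stands for. Libraries 1 and 2 were above libraries 3 and 4 for 8 of the 10 genes as deposited and for 6 of the 10 after scaling with the trimmed mean of M-values (TMM), which sets libraries to a common level over most genes. IRI library 5 held the highest value of 5 of the 10 genes and the lowest of 2, under both scalings. The median change over the tested transcriptome was 0.016 with TMM and -0.14 as deposited, a shift of 0.15. For part of the results, TMM values and values without library 5 are therefore given beside the deposited ones. The remaining changes and list medians are given as deposited only. Fewer cells of a type and less RNA per cell cannot be told apart in these bulk samples.

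None of the 8 tested genes passed an adjusted p of 0.05 in limma, where 0.907% of the 14444 tested genes passed, 0.305% higher and 0.602% lower in HxIRI. At an unadjusted p under 0.05, 1 of the 8 was reached (Hmox1), against 9.36% of all tested genes. Of the 8 changes, 2 were positive and 6 negative, with a median log2 change of -0.33 against -0.14 over all tested genes. With TMM the median was -0.16 against 0.016, and without library 5 it was 0.13 against 0.025. The groups did not separate fully for any of the 8 under either scaling, while they did for 4.92% of tested genes as deposited and for 13.2% with TMM. All log2 changes are HxIRI minus IRI on log2(FPKM + 0.5), which understates changes of low genes.

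**Figure D1:**
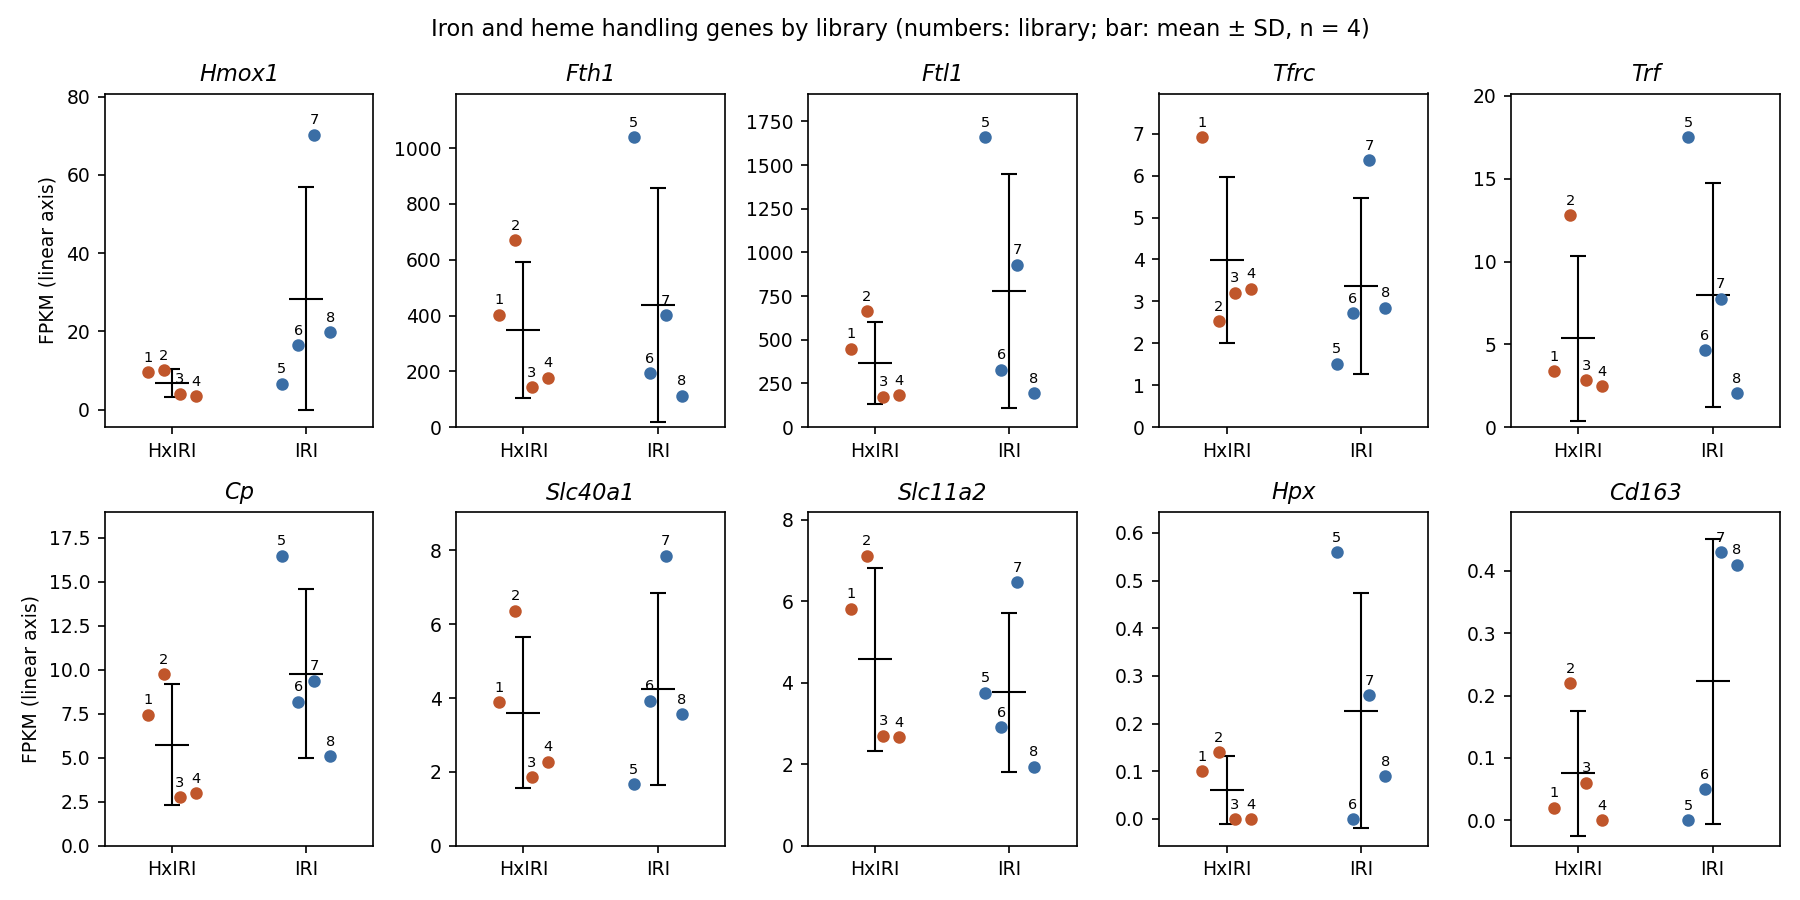
Deposited FPKM of each of the 10 genes in every library (points, numbered by library), HxIRI left and IRI right, with group means and SD bars (n = 4 each) and a separate axis for each gene. Hmox1 averaged 6.83 FPKM in HxIRI and 28.3 FPKM in IRI libraries, with IRI library 7 at 70.28 FPKM and IRI library 5 at 6.70 FPKM.

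Hmox1, which encodes the inducible heme oxygenase, had the most negative change of the set, -1.62 on the log2 scale, and among the 20 alternatives it passed with TMM without IRI library 5 and with library weights. It lies at chr8:75093621-75100589 on the plus strand (GRCm38). HxIRI libraries 1 to 4 held 9.64, 10.12, 4.12 and 3.43 FPKM, and IRI libraries 5 to 8 held 6.70, 16.51, 70.28 and 19.84 FPKM. All HxIRI values lay below those of IRI libraries 6, 7 and 8, and IRI library 5 lay among the HxIRI values. The mean was 6.83 ± 3.54 FPKM in HxIRI and 28.3 ± 28.5 FPKM in IRI (SD, n = 4 each), and the difference did not pass (limma, adjusted p = 0.461). The log2 change was -1.62 ± 0.72 (SE), with a 95% interval of -3.12 to -0.13.

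With TMM, Hmox1 was at 7.74, 7.13, 6.37 and 5.17 in HxIRI libraries, against 7.48, 16.4, 37.1 and 25.7 in IRI libraries 5 to 8 (scaled FPKM). The HxIRI libraries came close to each other on this scale, and library 5 again sat with them. The log2 change was -1.44 ± 0.46 with all libraries (limma, adjusted p = 0.147). Without IRI library 5 it was -1.84 ± 0.26 and passed (limma, adjusted p = 0.00836), where 11.1% of tested genes passed. Weights that count scattered libraries less left the change at -1.62, and it also passed (limma, adjusted p = 0.00848). With these weights 360 genes passed as higher and 1297 as lower, out of 14444 tested. The direction of the Hmox1 change held under each alternative. That change ran from -2.27 with HxIRI libraries 3 and 4 only to -0.98 with HxIRI libraries 1 and 2 only.

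Macrophages break down heme from red cells and can express Hmox1, and the levels of their markers differed between libraries as well. Summed over 10 markers, none of them at 0 in any library, they reached 113.8, 112.0, 22.7 and 26.3 FPKM in HxIRI libraries 1 to 4, against 838.0, 208.1, 628.9 and 137.4 FPKM in IRI libraries 5 to 8. All 10 of the 10 tested markers had negative log2 changes, from -2.79 to -0.92, and 0 of them passed as deposited (limma, smallest adjusted p = 0.0600). At an unadjusted p under 0.05 in limma there were 9, against 9.36% of all tested genes. As lower, 3 passed with TMM and 8 with TMM without library 5, where 1.32% and 5.32% of tested genes did. Library 5 held the highest marker sum and the lowest Hmox1 of the IRI libraries. Most of its sum was C1qb (384.11 FPKM) and C1qa (249.48 FPKM). Csf1r, C1qa, C1qb and C1qc were highest in library 5, and all other markers in library 7. Mrc1 (0.86 FPKM) and Itgam (0.68 FPKM) were lower in library 5 than in any other IRI library, so the sum does not rank the libraries by macrophage content. Per 100 FPKM of these markers, Hmox1 was at 8.47, 9.03, 18.2 and 13.0 in HxIRI libraries, against 0.800, 7.94, 11.2 and 14.4 in IRI libraries, and the groups overlapped. The part of macrophages in the Hmox1 result was not tested.

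**Figure D2:**
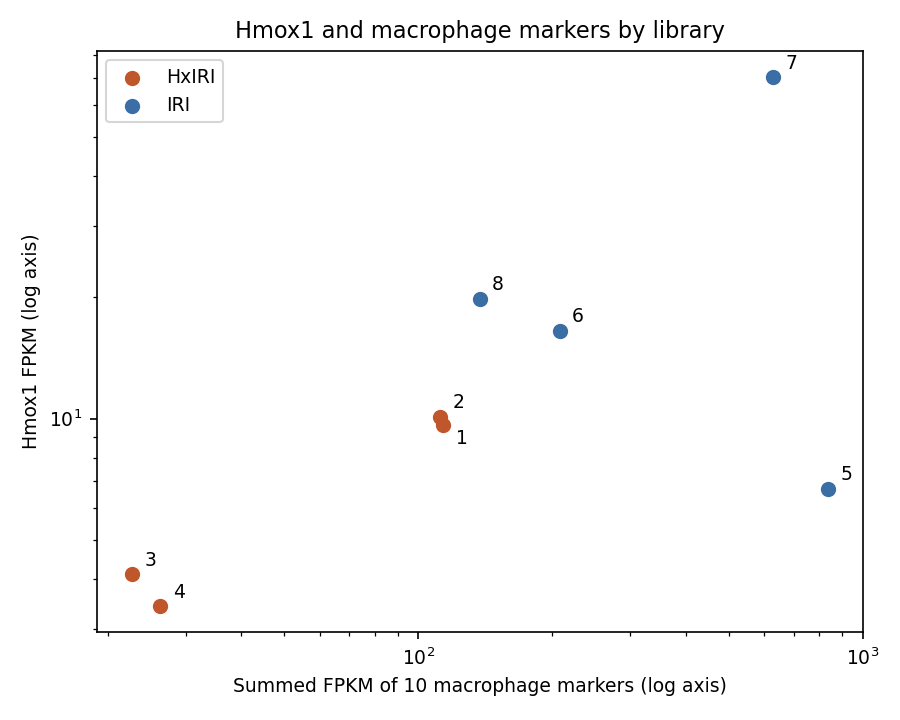
Hmox1 against the summed FPKM of 10 macrophage markers in each library, both axes on log scales, points numbered by library. IRI libraries 6, 7 and 8 lie above all HxIRI libraries on the Hmox1 axis, and IRI library 5 combines the highest marker sum, 838.0 FPKM, with 6.70 FPKM of Hmox1. Most of the sum in library 5 is C1qa and C1qb.

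The genes whose levels on log2(FPKM + 0.5) followed Hmox1 most closely over the 8 libraries, among 10114 genes compared, were Knstrn (Pearson r = 0.999), Zc3hav1 (0.991), Mad2l1 (0.991), Aurkb (0.991) and Gtse1 (0.990). Each was highest in IRI library 7 and at most 2.68 FPKM in any HxIRI library. The 8 points share their library's depth and ribosomal share, and IRI library 7 is highest on both axes, so the values are a description.

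Ferritin mRNA was the most abundant of the set by far. Ftl1, the light chain, averaged 573 FPKM over the 8 libraries and Fth1, the heavy chain that oxidises iron on entry, 393 FPKM, while Hmox1, next in level, averaged 17.6 FPKM. Fth1 (chr19:9980598-9985098, plus strand) was at 403.17, 670.66, 142.32 and 177.92 FPKM in HxIRI libraries, against 1039.40, 192.42, 402.04 and 113.06 FPKM in IRI libraries. Ftl1 (chr7:45457944-45459884, minus strand) was at 448.32, 663.64, 173.12 and 184.06 FPKM in HxIRI libraries, against 1660.43, 329.22, 929.89 and 193.87 FPKM in IRI libraries. Both ranged over 9-fold between libraries, within as well as between the groups, with HxIRI libraries 1 and 2 and IRI libraries 5 and 7 high.

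Neither ferritin gene alone passed. The log2 change of Fth1 was -0.10 ± 0.89 (limma, adjusted p = 0.999, 95% interval -1.93 to 1.72) and that of Ftl1 was -0.84 ± 0.88 (limma, adjusted p = 0.935, 95% interval -2.65 to 0.96). The sign of Fth1 turned with TMM, to 0.098, and without library 5 it was 0.78 (limma, adjusted p = 0.137), while Ftl1 was then at -0.018. These intervals are wide and do not show that ferritin mRNA was alike in the groups.

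A ratio within a library cancels its scaling, and 4 ratios of these genes were compared in that way. The ratio of heavy to light chain was 0.899, 1.01, 0.822 and 0.967 in HxIRI libraries 1 to 4, against 0.626, 0.584, 0.432 and 0.583 in IRI libraries 5 to 8. Every HxIRI library lay above every IRI library, library 5 included. On the log2 scale the ratio was -0.12 ± 0.13 in HxIRI and -0.86 ± 0.24 in IRI (SD, n = 4 each), a difference of 0.74, or 1.67-fold. The exact two-sided permutation test over 70 assignments gave p = 0.0286, the smallest that 4 against 4 libraries can give, and adjusted over the 4 ratios it was 0.114, which did not pass. Leaving out each library in turn gave differences of 0.62 to 0.80, with p = 0.0571, the smallest that the exact permutation test then allows.

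The ferritin genes have near-identical copies, and the annotation puts a further transcript inside Ftl1, so the division of fragments between them is uncertain. The processed pseudogene Ftl1-ps1 was at 10.34, 14.24, 8.45 and 6.62 FPKM in HxIRI libraries, against 75.76, 4.10, 35.00 and 7.89 FPKM in IRI libraries. Fth-ps2 and Fth-ps3 were added to Fth1, and Ftl1-ps1, Ftl1-ps2 and Ftl2-ps to Ftl1. The heavy to light ratio then still differed by 0.74 (exact permutation p = 0.0286). Copies annotated under other names were not searched for, and Fth-ps3 was at 0 FPKM in every library. Gm22133, annotated as a miRNA of 109 bases within the last exon of Ftl1 on the same strand, was listed at 584 to 1420 FPKM in HxIRI and at 620 to 17372 FPKM in IRI libraries. With its fragments added to Ftl1, the ratio was 0.663, 0.816, 0.580 and 0.713 in HxIRI libraries, against 0.287, 0.466, 0.323 and 0.430 in IRI libraries, a log2 difference of 0.90 (exact permutation p = 0.0286). Both additions were chosen after seeing the data. Fth1 has coding transcripts of 929 and 1494 bases in the annotation, and the FPKM of a gene also depends on which of its transcripts were counted.

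**Figure D3:**
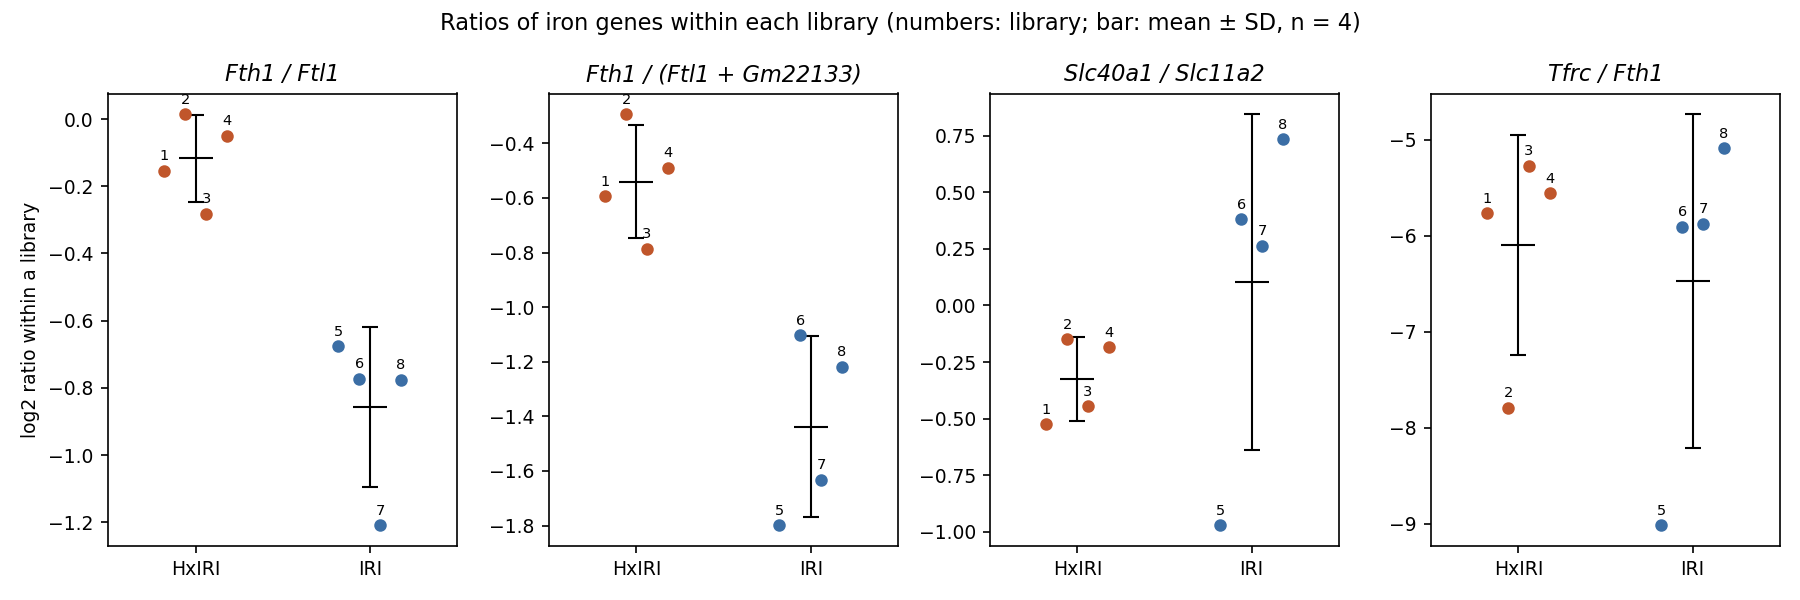
Log2 ratios within each library for Fth1 to Ftl1, for Fth1 to Ftl1 with the fragments of Gm22133 added, for Slc40a1 to Slc11a2 and for Tfrc to Fth1, HxIRI left and IRI right, points numbered by library, with group means and SD bars (n = 4 each). The groups are apart in both ferritin panels (-0.12 in HxIRI and -0.86 in IRI on average in the first) and overlap in the other panels.

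Tfrc, the transferrin receptor, did not pass and scattered within both groups. It was at 6.92, 2.53, 3.21 and 3.30 FPKM in HxIRI libraries, against 1.51, 2.72, 6.37 and 2.85 FPKM in IRI libraries. HxIRI library 1 and IRI library 7 were high, and the groups overlapped. The log2 change was 0.27 ± 0.54 (limma, adjusted p = 0.999, 95% interval -0.84 to 1.38), and with TMM 0.47 ± 0.37 (limma, adjusted p = 0.579). The ratio of Tfrc to Fth1, whose mRNAs carry the hairpin at opposite ends, was 0.0172, 0.00377, 0.0226 and 0.0185 in HxIRI libraries, against 0.00145, 0.0141, 0.0158 and 0.0252 in IRI libraries. The log2 difference was 0.37 (exact permutation p = 0.657, adjusted over the 4 ratios 0.657), and it turned to -0.47 without IRI library 5 (exact permutation p = 0.743). The genes that followed Tfrc most closely over the 8 libraries were B4galt5 (Pearson r = 0.969), Rab6a (0.950), Zswim5 (0.928), Pik3r3 (0.927) and Mob4 (0.925), a description with the limits given for Hmox1.

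Transferrin and ceruloplasmin are plasma proteins made mainly by the liver, and their mRNAs were also detected in every kidney library. Trf, which encodes transferrin, was at 3.37, 12.81, 2.85 and 2.46 FPKM in HxIRI libraries, against 17.52, 4.64, 7.75 and 2.06 FPKM in IRI libraries. HxIRI library 2 and IRI library 5 were high. The log2 change was -0.48 ± 0.66 (limma, adjusted p = 0.982), and its sign turned without library 5 under TMM, to 0.27 (limma, adjusted p = 0.715). The annotated gene Gm20425 overlaps Trf on the same strand, so their fragments cannot be fully told apart. Cp encodes ceruloplasmin, a copper enzyme that oxidises iron as it leaves the cell. It was at 7.44, 9.74, 2.74 and 2.98 FPKM in HxIRI libraries, against 16.50, 8.19, 9.37 and 5.10 FPKM in IRI libraries. HxIRI libraries 3 and 4 lay below all IRI libraries, but libraries 1 and 2 lay among them. The log2 change was -0.79 ± 0.62 (limma, adjusted p = 0.864) as deposited and -0.25 ± 0.24 with TMM without library 5 (limma, adjusted p = 0.595).

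The transporters of ferrous iron also overlapped between the groups. Slc40a1 encodes ferroportin, the exporter of iron, and was at 3.89, 6.37, 1.85 and 2.28 FPKM in HxIRI libraries, against 1.67, 3.93, 7.86 and 3.56 FPKM in IRI libraries. Its log2 change was -0.18 ± 0.56 (limma, adjusted p = 0.999, 95% interval -1.33 to 0.97), and with TMM -0.011 ± 0.30 (limma, adjusted p = 0.989). Slc11a2 encodes DMT1, which imports ferrous iron and lets it out of endosomes. It was at 5.81, 7.12, 2.70 and 2.66 FPKM in HxIRI libraries, against 3.75, 2.90, 6.46 and 1.94 FPKM in IRI libraries. Its log2 change was 0.25 ± 0.55 (limma, adjusted p = 0.999), and with TMM without library 5 it was 0.55 ± 0.15 and came just short of passing (limma, adjusted p = 0.0572).

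The ratio of exporter to importer mRNA was below 1 in every HxIRI library. It was 0.670, 0.895, 0.685 and 0.857 in HxIRI libraries, against 0.445, 1.36, 1.22 and 1.84 in IRI libraries 5 to 8. Among IRI libraries it was below 1 in library 5 only. The log2 difference of -0.43 did not pass (exact permutation p = 0.286, adjusted over the 4 ratios 0.381). Without library 5 the groups did not overlap, with a difference of -0.79 and p = 0.0571, the smallest that the exact permutation test then allows.

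Hpx and Cd163, whose products clear heme and hemoglobin from plasma, were close to the limit of detection. Hpx, which encodes hemopexin, was at 0.10, 0.14, 0 and 0 FPKM in HxIRI libraries, against 0.56, 0, 0.26 and 0.09 FPKM in IRI libraries, at most an estimated 11 fragments in a library. Cd163, the macrophage receptor for hemoglobin bound to haptoglobin, was at 0.02, 0.22, 0.06 and 0 FPKM in HxIRI libraries, against 0, 0.05, 0.43 and 0.41 FPKM in IRI libraries, at most an estimated 27 fragments. Neither was tested, so these values do not say whether the groups differed. The ratio of Hmox1 to Cd163, with the pseudocount added to both, differed by -1.34 on the log2 scale (exact permutation p = 0.0857, adjusted over the 4 ratios 0.171), and it rests on Cd163 values near 0.

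In the order of mean levels over all libraries, Ftl1 exceeded Fth1 in 7 of 8 libraries, Fth1 exceeded Hmox1 in 8 of 8, and Hmox1 exceeded Cp (7.76 FPKM) in 7 of 8. The next neighbours were not separated beyond their spread: Cp exceeded Trf (6.68 FPKM) in 5 of 8 libraries, Trf exceeded Slc11a2 (4.17 FPKM) in 6 of 8, Slc11a2 exceeded Slc40a1 (3.93 FPKM) in 5 of 8, and Slc40a1 exceeded Tfrc (3.68 FPKM) in 5 of 8. Between libraries Hmox1 varied most among the 8 tested genes, with a highest value 20.5 times the lowest, and Slc11a2 least, 3.67 times.

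**Figure D4:**
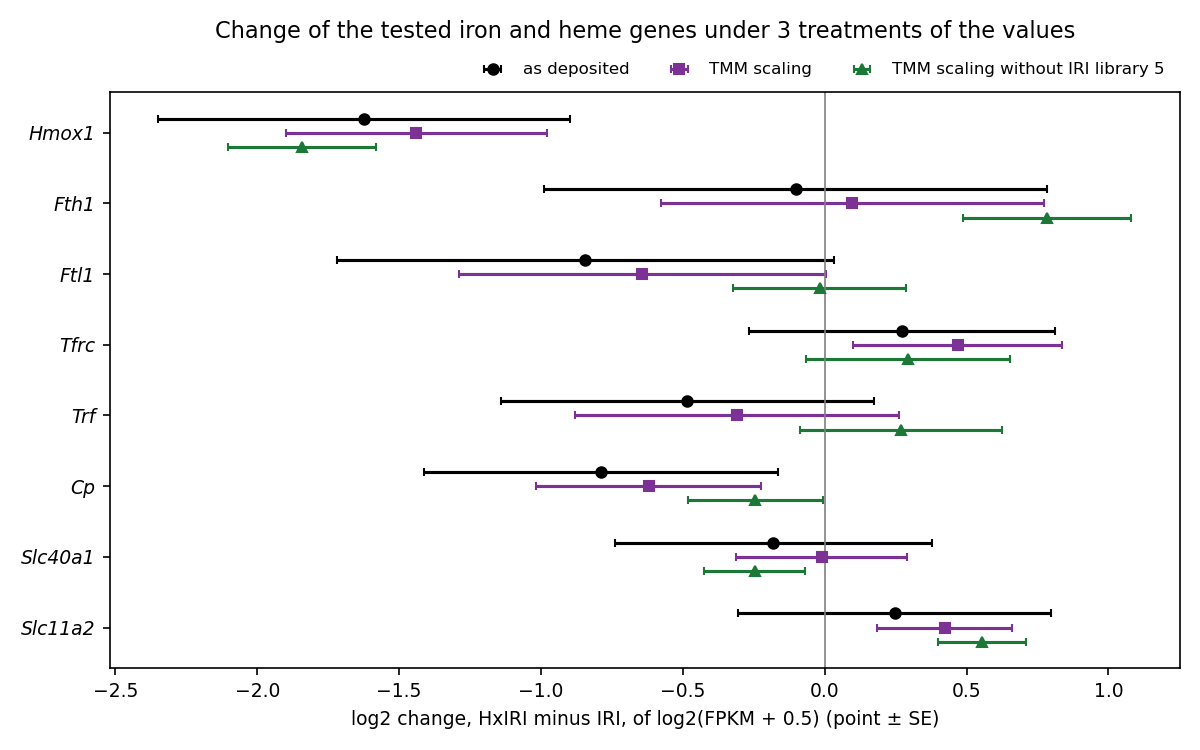
Log2 change (HxIRI minus IRI, on log2(FPKM + 0.5)) with its SE for the 8 tested genes, as deposited (circles), with TMM (squares), and with TMM without IRI library 5 (triangles). Of the values plotted, the Hmox1 change without library 5, -1.84, is the 1 that passed an adjusted p of 0.05.

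Beyond the 10 genes, 7 lists of other iron and heme genes held 64 genes in the table, of which 56 were tested (Ftmt and Hephl1 were not analysed here). As deposited, 0 of the 56 passed (limma, smallest adjusted p = 0.0780), and 5 (8.93%: Slc39a8, Lcn2, Steap1, Flvcr2 and Alas2) were at an unadjusted p under 0.05, against 9.36% of all tested genes. With TMM 2 of 56 were higher and 0 lower, where 1.21% and 1.32% of tested genes were. Without library 5 as well, 4 were higher and 2 lower, where 5.77% and 5.32% of tested genes were. The groups did not overlap for 10 of the 56 with TMM (17.9%), against 13.2% of tested genes.

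In the list for iron uptake, reduction and endocytosis, 0 of 11 tested genes passed as deposited, and the median log2 change was 0.31 against -0.14 over all genes. Slc39a8, which encodes ZIP8, an importer of zinc, manganese and iron, was at 4.65, 5.49, 1.85 and 2.36 FPKM in HxIRI libraries, against 0.46, 0.88, 0.94 and 0.52 FPKM in IRI libraries. Each HxIRI library lay above each IRI library. The log2 change of 1.68 ± 0.46 missed the threshold as deposited (limma, adjusted p = 0.0780), and the change of 1.82 ± 0.21 with TMM passed (limma, adjusted p = 0.0112).

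Lcn2 encodes lipocalin 2, which binds siderophores that carry iron and is an injury marker of the tubule. It was at 12.01, 15.32, 2.08 and 2.44 FPKM in HxIRI libraries, against 206.58, 20.44, 55.89 and 22.68 FPKM in IRI libraries, again without overlap. Its log2 change was -2.97 ± 0.83 as deposited (limma, adjusted p = 0.0855) and -2.02 ± 0.40 with TMM without library 5, where it passed (limma, adjusted p = 0.0193). Lrp2, which encodes megalin, an endocytic receptor that reclaims filtered proteins, was at 65.41, 54.29, 73.44 and 90.34 FPKM in HxIRI libraries, against 22.57, 53.92, 29.30 and 24.01 FPKM in IRI libraries, with a log2 change of 1.18 ± 0.75 (limma, adjusted p = 0.756). Megalin is itself made by proximal tubule cells, whose markers differed between libraries as given above, and their part in the Lrp2 values was not tested. Positive changes were not limited to that segment. As deposited, markers of other kidney segments had a median of 1.05 (4 of 6 positive) and those of endothelium 0.54 (4 of 5 positive), with 0 passing. Steap1, of the family of metal reductases, was singled out after its values were seen: it was lower with TMM without library 5, by -1.64 (limma, adjusted p = 0.0344).

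In the list for heme breakdown and heme transport, 0 of 12 tested genes passed as deposited, with a median of -0.11. Flvcr2, a relative of the heme exporter gene Flvcr1, was at 2.54, 7.87, 1.65 and 1.72 FPKM in HxIRI libraries, against 0.54, 1.24, 1.29 and 0.42 FPKM in IRI libraries, without overlap. It passed with TMM, with a log2 change of 1.49 ± 0.31 (limma, adjusted p = 0.0421), and not as deposited (1.34 ± 0.49, limma, adjusted p = 0.273). Blvrb, a biliverdin reductase gene, had -1.04 ± 0.55 (limma, adjusted p = 0.618). Slc48a1, which encodes the heme transporter HRG1 of lysosomes, had -1.005 ± 0.80 (limma, adjusted p = 0.864), with 152.87 FPKM in IRI library 5 and 12.13 to 41.91 FPKM in the other IRI libraries. With TMM without library 5, the change was -0.33 for Blvrb (limma, adjusted p = 0.392) and -0.0018 for Slc48a1 (limma, adjusted p = 0.998). Slc46a1, a folate and heme carrier gene singled out after its values were seen, was higher with TMM without library 5 (1.33, limma, adjusted p = 0.0177).

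In the list for heme synthesis, 0 of 9 tested genes passed, with a median of 0.037. Alas2, the erythroid form of the first enzyme, was at 1.85, 1.99, 1.39 and 1.86 FPKM in HxIRI libraries, against 0.85, 1.06, 0.42 and 0.46 FPKM in IRI libraries. The groups did not overlap, but the log2 change of 0.95 ± 0.41 did not pass (limma, adjusted p = 0.428). The summed markers of red cells were at 366, 532, 233 and 197 FPKM in HxIRI libraries, against 548, 41.9, 51.5 and 9.97 FPKM in IRI libraries. The sum was high in IRI library 5 through Hba-a1 (233.76 FPKM) and Hba-a2 (253.19 FPKM). Hbb-bs (47.85 FPKM) and Hbb-bt (13.01 FPKM) in library 5 lay below every HxIRI library, where they were at least 64.82 and 24.21 FPKM. Nearly all of the sum was globin mRNA, and the part of red cells in the Alas2 values was not tested. Ppox and Alad, which encode further enzymes of the pathway, had -0.85 ± 0.67 (limma, adjusted p = 0.864) and -0.40 ± 0.76 (limma, adjusted p = 0.999).

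The other lists had 0 genes passing as deposited. Ferritin turnover had 4 of 4 tested genes with positive changes and a median of 0.16, led by Ncoa4, which brings ferritin to the autophagosome. With TMM without library 5, that median was 0.016, against 0.025 over all tested genes. Ncoa4 was at 4.68, 14.22, 1.69 and 1.43 FPKM in HxIRI libraries, against 0.39, 2.46, 2.58 and 1.98 FPKM in IRI libraries, with overlap and a log2 change of 1.0004 ± 0.60 (limma, adjusted p = 0.711). The iron chaperone genes Pcbp2 (0.19) and Pcbp1 (0.010) were near 0 change. The iron sensing list had 3 of 3 positive changes and a median of 0.24, with Aco1 at 0.54 and Ireb2 at 0.24, which encode the iron regulatory proteins that bind the hairpins shown above. Of 13 tested genes for mitochondrial iron and iron-sulfur clusters the median was 0.23, and Nfs1, the cysteine desulfurase gene, was higher with TMM without library 5 (0.999, limma, adjusted p = 0.0297), while Iscu (0.72) and Cisd1 (0.64) did not pass in the deposited values.

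In the list for iron export and the hepcidin axis, 4 of 9 genes in the table were tested, and the median was -0.11. Hamp, the gene of hepcidin, which binds ferroportin and causes its loss, was at most 0.13 FPKM in any HxIRI library and at most 0.11 FPKM in any IRI library. Bmp6, a growth factor gene that drives hepcidin in the liver, was at 6.69, 16.33, 4.58 and 3.93 FPKM in HxIRI libraries, against 5.13, 8.70, 16.80 and 6.43 FPKM in IRI libraries, with a log2 change of -0.30 ± 0.64 (limma, adjusted p = 0.999). Heph, the gene of the ferroxidase hephaestin, had -0.12 ± 0.45 (limma, adjusted p = 0.999), and its sign turned with TMM, to 0.026.

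**Figure D5:**
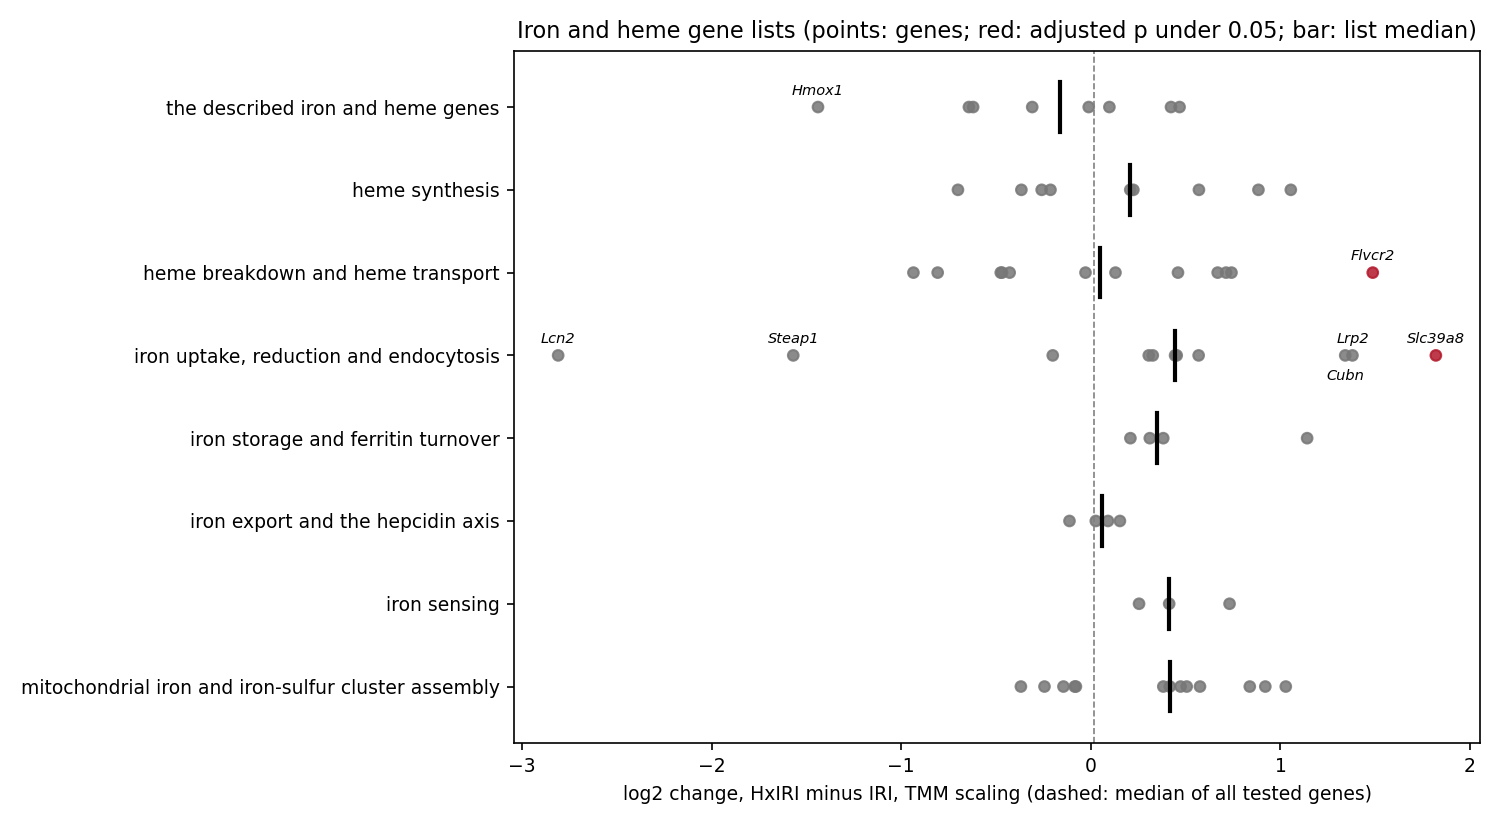
Log2 change with TMM scaling (HxIRI minus IRI) of each tested gene, 1 point per gene, for the described genes and the 7 lists, with each list's median as a bar and the median of all tested genes, 0.016, as a dashed line. Slc39a8 (1.82) and Flvcr2 (1.49), in red, passed an adjusted p of 0.05, and Lcn2 (-2.81) lies farthest from 0 without passing.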

How the data were processed

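Gene levels were taken from the FPKM table the authors deposited, with 1 value per gene and library, per the file headers. Per the labels' protocols, RNA was taken with Trizol from kidneys frozen in liquid nitrogen and made into stranded poly(A) libraries. The submitters' processing notes name HISAT2, StringTie and edgeR without roles, and the genome build is not given in the sources used here. Gene symbols, coordinates and transcripts came from GENCODE M21. Depth was estimated from the steps of low FPKM values.

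log2(FPKM + 0.5) was fitted with limma 3.58.1 (R 4.3.3) for 14444 genes with a mean of at least 0.5 FPKM, with a trended variance, Benjamini-Hochberg adjustment and a threshold of 0.05. The fit was tested on simulated data. Within-library ratios used exact permutation tests over libraries. TMM factors were computed from FPKM of the tested genes, as an alternative. Genes named outside the 10 were, for each list, the 2 with the smallest p-values and the most abundant one, unless the text says otherwise. The members and lists were chosen with earlier results of these data known.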

Additional observations from a re-analysis of the deposited data

Results flagged for a closer look

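Trf, the transferrin gene, was at 12.81 FPKM in HxIRI library 2, against 3.37, 2.85 and 2.46 FPKM in the other HxIRI libraries. The gap to the nearest library was 0.912 of the group's whole range, above Dixon's 95% critical value for 4 samples. Of 28 groups of values checked, 1 was marked in this way, and chance marks about 1 in 20 groups.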

How the results depend on the processing

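No paired analysis was possible because the libraries are numbered 1 to 4 in HxIRI and 5 to 8 in IRI and share no number. The number of the 10 genes called higher stayed at 0 in all 20 alternatives, and 1 was called lower (Hmox1) with library weights and with TMM scaling without IRI library 5. Over all genes, 44 were higher and 87 lower as deposited. The counts were 175 and 191 with TMM, 831 and 767 with TMM without IRI library 5, 280 and 349 with quantile normalization, 360 and 1297 with library weights, and 0 and 0 without the filter, where 665 and 1356 genes were at an unadjusted p under 0.05 in limma. The lower count was 47 with a pseudocount of 1 and 139 with the length trend removed. It was 16 (97 higher) with HxIRI libraries 1 and 2 only and 348 with HxIRI libraries 3 and 4 only. Leaving out each library gave 11 to 67 higher and 4 to 237 lower.

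Of the 56 other iron and heme genes, 0 passed as deposited. With TMM 2 were higher, with TMM without IRI library 5 there were 4 higher and 2 lower, with quantile normalization 3 higher and 1 lower, and with library weights 1 higher and 3 lower. With a filter of mean FPKM 2, or with the length trend removed, 1 was lower. With HxIRI libraries 1 and 2 only 1 was higher, and with HxIRI libraries 3 and 4 only 2 were lower. Leaving out each library gave 0 to 1 lower, and the 1 was Lcn2.

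The sign turned for genes that were not called as deposited. With TMM it did so for Fth1 (0.098) and Heph (0.026), with quantile normalization for Fth1 (0.38), Alad (0.054) and Heph (0.0018), and with library weights for Fth1 (0.23), Alad (0.066), Pcbp1 (-0.36) and Pcbp2 (-0.47). With TMM without IRI library 5 it did so for Fth1 (0.78), Alad (0.58), Ppox (0.049), Trf (0.27) and Pcbp1 (-0.14). With HxIRI libraries 1 and 2 only it did so for Fth1 (0.75), Alad (0.33), Bmp6 (0.31), Heph (0.13), Slc40a1 (0.37) and Trf (0.11). With HxIRI libraries 3 and 4 only it did so for Aco1 (-0.20), Cisd1 (-0.48), Ireb2 (-0.26), Iscu (-0.13), Ncoa4 (-0.043), Pcbp1 (-0.65), Pcbp2 (-0.52) and Slc11a2 (-0.32). Leaving out each library gave Alad -0.96 to 0.29, Fth1 -0.58 to 0.48, Bmp6 -0.70 to 0.024, Heph -0.49 to 0.14, Slc40a1 -0.51 to 0.14, Ireb2 -0.12 to 0.56, Pcbp1 -0.44 to 0.55, Pcbp2 -0.29 to 0.63 and Slc46a1 -0.022 to 1.04.

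The Tfrc to Fth1 difference ran from -0.47 to 0.94 and the Fth1 to Ftl1 difference from 0.62 to 0.80 when each library was left out. The cause was not tested. With 3 against 4 libraries the exact permutation test cannot pass 0.05. Few fragments limit what can be said of Hpx and Cd163.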

Other observations

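Gm22133, the annotated miRNA inside the last exon of Ftl1, was listed at 17372 FPKM in IRI library 5, against 620 to 2816 FPKM in IRI libraries 6 to 8 and 584 to 1420 FPKM in HxIRI libraries. The processed pseudogene Ftl2-ps followed a like order, with 5.63, 5.41, 0.94 and 0.89 FPKM in HxIRI libraries, against 20.04, 1.32, 10.08 and 0.28 FPKM in IRI libraries.

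Markers known from liver summed to 51.3, 88.9, 25.2 and 24.9 FPKM in HxIRI libraries, against 115, 7.34, 8.89 and 4.13 FPKM in IRI libraries, most of it Ttr. Their defining member Alb was at most 0.56 FPKM in any library. Of the 4 tested markers, 3 had positive log2 changes and 1 a negative one, and 0 passed as deposited. The negative one was Apoa2 (-1.30), at 1.31, 2.66, 1.08 and 0 FPKM in HxIRI libraries, against 26.45, 0.57, 1.90 and 1.93 FPKM in IRI libraries. The sum therefore does not rank the libraries by liver-type expression. In IRI libraries 6, 7 and 8, where the sum was lower than in any HxIRI library, Trf was at 4.64, 7.75 and 2.06 FPKM and Cp at 8.19, 9.37 and 5.10 FPKM. The part of liver-type expression in Trf and Cp was not tested.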
